A study of Mus musculus with 6 samples.

Results

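The genes described here belong to the amino acid transporter families Slc1, Slc3, Slc6, Slc7, Slc36, Slc38 and Slc43 of solute carriers, though not every member carries amino acids. They were chosen by symbol alone, as every gene of the deposited table named Slc1a, Slc3a, Slc6a, Slc7a, Slc36a, Slc38a or Slc43a followed by a number. This gave 61 of 24940 genes, of which 7 belong to Slc1, 2 to Slc3, 19 to Slc6, 15 to Slc7, 4 to Slc36, 11 to Slc38 and 3 to Slc43. RNA with poly(A) tails was sequenced from primary hepatic stellate cells (pericytes of the liver sinusoid that store vitamin A) of wild-type female C57BL/6JBomTac mice. In the forskolin group (Fsk, 3 libraries A, B and C), 5 µM forskolin, an activator of adenylyl cyclase that raises cyclic AMP, was added to cultures 2 days after isolation. In the vehicle group (Ctrl, 3 libraries A, B and C) only the solvent dimethyl sulfoxide (DMSO) was added, at 1:1000. In both groups the medium was replaced after 3 h and RNA was taken after another 21 h, so that all libraries show cells 24 h after the start and 21 h after the medium with the agent was replaced. The comparison asked which of these transporter genes differed in level after the pulse. The labels give no age of the mice and do not say whether libraries came from separate animals or cultures, so p-values measure only the spread between libraries, which may be technical.

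The forskolin libraries held 10890193 to 12954310 counts and the vehicle libraries 13001358 to 15090262.5, and every forskolin library was shallower than every vehicle library. Levels are given as CPM, the usual count relative to the scaled size of the library. The labelled cell type could be followed in its markers. All 20 stellate cell markers examined passed the filter on low counts, among them Reln at 831 ± 51.2 and 927 ± 71.8 CPM, Dcn at 487 ± 18.3 and 616 ± 17.3 CPM and Lrat at 55 ± 1.84 and 51.9 ± 9.09 CPM with vehicle and forskolin (SD, n = 3 each). Of these 20 markers 7 were higher and 9 lower with forskolin, beside 24.8% higher and 25.1% lower of all genes tested. Hgf was at 198 ± 7.03 and 401 ± 11.7 CPM and Tcf21 at 106 ± 2.32 and 27.3 ± 1.88 CPM. The summed level of the 20 markers overlapped between the groups (7169.7 to 7507 and 6942 to 7267 CPM). Of 16 hepatocyte markers 3 passed, and their summed level was 304 to 317 CPM with vehicle and 361 to 443 CPM with forskolin, nearly all of it Trf and Ass1, with Fga, Fgb, Serpina1a and Cyp3a11 at 0 in every library. Of 15 macrophage markers 4 passed (46.8 to 47.6 and 51 to 56.4 CPM, Marco at 0). Of 14 sinusoidal endothelial markers 9 passed (243 to 253 and 107 to 112 CPM, led by Flt4, with Pecam1 at 0.379 and 0.397 CPM on average). Of these 9, 1 was higher and 5 were lower with forskolin. Of 10 cholangiocyte markers 4 passed (138 to 153 and 393 to 428 CPM, Spp1 leading with forskolin), 2 of them higher and 2 lower. Of 10 neuron and glia markers 4 passed (54.3 to 60.2 and 158 to 189 CPM, Tubb3 leading with forskolin), 2 of them higher and 0 lower. The shares of all genes tested are those given above. The part of such marker differences in the transporter results was not tested. In bulk RNA, a change in the share of a cell type and a change in RNA per cell cannot be told apart.

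Amino acids cross membranes through carriers that differ in substrate, in coupling to ions and in partner proteins. Slc1 proteins carry glutamate or exchange small neutral amino acids, Slc6 proteins carry neurotransmitters, osmolytes and amino acids with sodium and chloride, and Slc36 and Slc38 proteins move small neutral amino acids with protons or sodium at the plasma membrane and the lysosome. The light chains of the Slc7 family reach the cell surface only when linked to a heavy chain of the Slc3 family. Supply of cystine, glutamine, glycine, proline and serine matters to stellate cells because these feed glutathione and collagen. Genes of several carriers are known targets of ATF4, the transcription factor of the response to amino acid deprivation.

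Transporter genes differed in both directions. Of the 61 genes 34 passed the filter on low counts and were tested, 14 were higher and 11 lower with forskolin at an adjusted p under 0.05 (edgeR, adjusted over the 13357 genes tested), and 9 did not pass. These 25 are 73.5% of the members tested, beside 49.9% of all genes tested in either direction (24.8% higher and 25.1% lower). A change of at least 2-fold past the threshold was found for 7 higher and 5 lower members, 12 of 34, where 6.62% of all genes tested reached it (2.9% higher and 3.71% lower). The median log2 fold change was 0.05 over the members and 0.01 over all genes tested, and the median absolute log2 fold change was 0.65 and 0.22. Among the 190 tested genes of other Slc families, 37 were higher and 77 lower, and their median absolute log2 fold change was 0.29. These are descriptions of the lists, with no test of one against another. For 2 of the 34, Slc6a12 and Slc38a4, every library of the low group was under the CPM that 10 counts give in the median library, so that these passed the filter only through the group in which they were high. The groups did not overlap for 26 of the 34 members (57.2% of all genes tested).

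**Figure D1:**
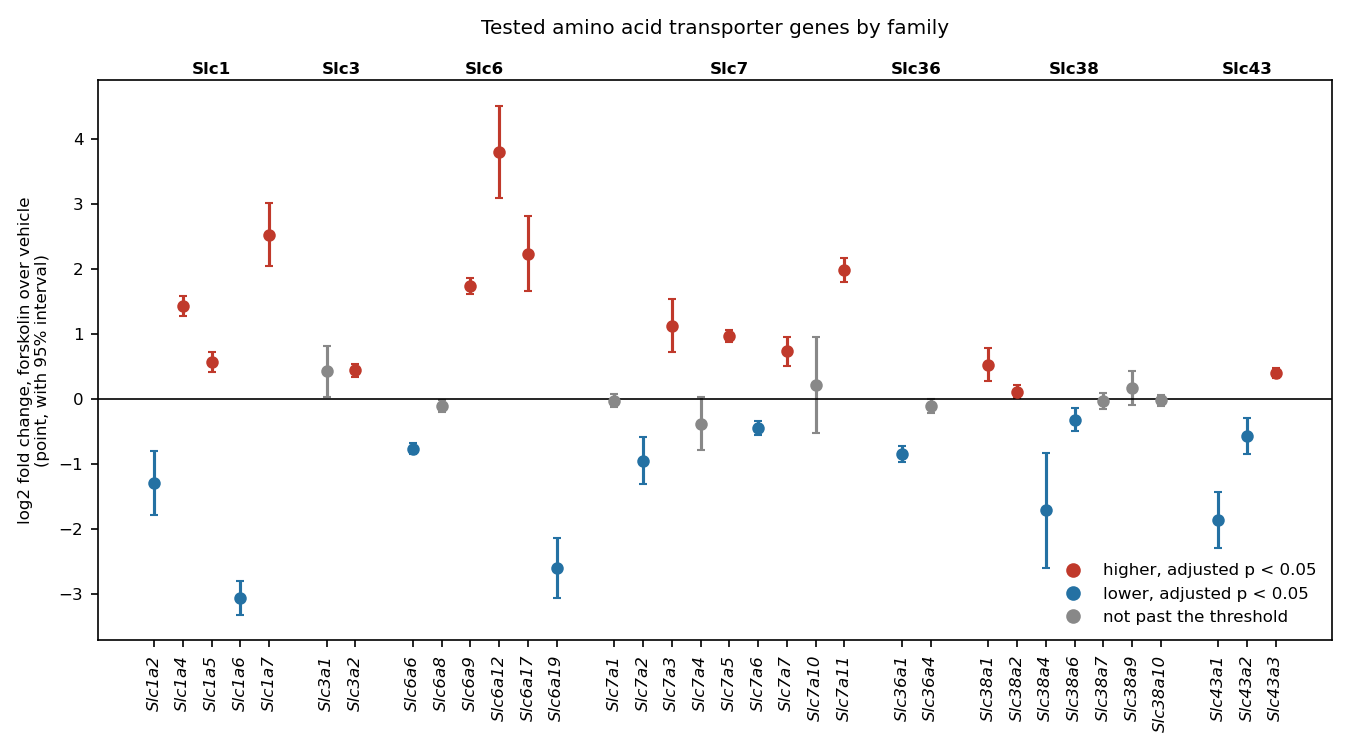
Log2 fold change of forskolin over vehicle (y axis) for the 34 tested transporter genes (x axis, by family), points with 95% intervals from the edgeR fit on 3 libraries per group. Values run from -3.05 for Slc1a6 to 3.80 for Slc6a12, and families Slc1, Slc6, Slc7, Slc38 and Slc43 each hold genes past the threshold in both directions.

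Of the 5 tested light chain genes of heteromeric carriers 3 were higher and 1 lower, where 49.9% of all genes tested passed in either direction. Slc7a11 (chromosome 3, 50364936 to 50443613, mm10) encodes xCT, the light chain that exchanges extracellular cystine for glutamate. It was counted at 87.5, 80.1 and 82 CPM with vehicle (A, B and C) and 380.2, 340.5 and 271 CPM with forskolin. All forskolin libraries lay far above all vehicle libraries, with forskolin C the lowest of the treated ones. The mean rose 3.97-fold (log2 fold change 1.99, SE 0.0861, adjusted p = 1.4e-12). Slc7a5, for LAT1, which exchanges leucine and other large neutral amino acids, stood at 132, 133 and 131 CPM with vehicle (A, B and C) and 258, 268 and 249 CPM with forskolin. Both groups were tight and the mean rose 1.95-fold (log2 fold change 0.97, SE 0.043, adjusted p = 2.09e-12). Slc7a7, for a light chain that exchanges cationic against neutral amino acids, rose from 13.6 ± 1.64 to 22.6 ± 1.14 CPM (log2 fold change 0.74, SE 0.105, adjusted p = 1.28e-05). Of its exon bases 10.1% overlap Oxa1l, which was at 46.7 and 49.5 CPM and did not pass (adjusted p = 0.292), so some of these counts are uncertain. Slc7a6, a close relative of Slc7a7 with the same exchange activity, went the other way, from 120.0, 130.4 and 124 CPM to 88.8, 90.1 and 96.8 CPM, and fell by 0.44 on the log2 scale (SE 0.0508, adjusted p = 9.63e-07). Slc7a10, for a carrier of small neutral amino acids best known from neurons and fat cells, was at 0.894 and 1.04 CPM and did not pass (adjusted p = 0.639, 95% interval of the log2 fold change -0.52 to 0.95). Of its exon bases 19.3% overlap Lrp3, a gene of 29.9 CPM with vehicle, so these counts are uncertain.

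The heavy chain gene Slc3a2, for 4F2hc or CD98, the partner of all 5 of these light chains, was higher with forskolin. It was counted at 247, 234 and 244 CPM with vehicle (A, B and C) and 354, 325 and 307 CPM with forskolin, with no overlap between the groups, and rose by 0.44 on the log2 scale (SE 0.0489, adjusted p = 5.58e-07). On the scale of CPM per kilobase of exon, which allows levels of different genes to be compared, Slc3a2 stood at 94.4 with vehicle and 128 with forskolin, above the mean of each light chain in both groups. The light chain Slc7a5 went from 37.7 to 73.7, Slc7a6 from 32.3 to 23.8, Slc7a11 from 9.03 to 35.9 and Slc7a7 from 5.97 to 9.96 CPM per kilobase. Within a library, Slc7a11 over Slc3a2 on this scale was 0.0984, 0.0952 and 0.0934 with vehicle (A, B and C) and 0.299, 0.291 and 0.245 with forskolin. Slc7a6 over Slc3a2 went from 0.322, 0.369 and 0.336 to 0.166, 0.184 and 0.209. All light chains of Slc3a2 together (Slc7a5, Slc7a6, Slc7a7, Slc7a8, Slc7a10 and Slc7a11) were at 0.886, 0.954 and 0.883 of the heavy chain with vehicle and 1.07, 1.16 and 1.14 with forskolin. On the deposited exon lengths, summed light chain RNA was thus below that of the heavy chain with vehicle and above it with forskolin. The deposited length of Slc3a2 is 2561 bases, while its GENCODE transcript has 1819 exon bases. With the shorter length these ratios would be lower, so whether the sum passes the heavy chain depends on the length used. The other heavy chain gene, Slc3a1, for rBAT of kidney and intestine, was at 4.65 ± 0.727 and 6.24 ± 1.23 CPM and did not pass (adjusted p = 0.0699), with 26.5% of its exon bases overlapping Prepl. Prepl was at 48 and 56.9 CPM and was higher (log2 fold change 0.25, adjusted p = 0.00289), so the counts of Slc3a1 are uncertain.

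Promoter windows of RefSeq (GRCm38.p6, the assembly of mm10), from 250 bases before to 50 after each start site, were at hand for 43 of the 61 members. They were searched on both strands for TGACGTCA (the full cyclic AMP response element), TGACG (its core, which the full element contains on both strands), TGATGNAAN (the C/EBP-ATF response element bound by ATF4) and TGACNNNGC (the antioxidant response element, which can overlap the core). The C/EBP-ATF letters were found in 3 of 9 higher members with a window, Slc7a11, Slc1a4 and Slc7a7, and in 0 of 9 lower ones. Of all genes with a window 4.5% held them, of the genes tested 2.7%, of all higher genes 3.35% and of all lower genes 2.29%. The C/EBP-ATF letters were also in the window of Slc6a21, which was not tested. The core letters were in 5 of 9 higher and 4 of 9 lower members (35.1% of genes tested), and the antioxidant letters in 2 of 9 and 3 of 9 (17.2%). The full cyclic AMP response element was in 1 member, Slc38a6, which was lower (3.57% of genes tested, 4.23% of all higher and 3.02% of all lower genes). A match describes the letters only. The windows that hold the C/EBP-ATF letters in higher members and the full element in Slc38a6 are shown 5′ to 3′ on the gene's strand, with the matches in capitals. That of Slc7a11 (chr3:50443624-50443723, minus strand) lies 110 to 11 bases before the start site and holds the letters in both orientations. That of Slc1a4 (chr11:20332704-20332803, minus strand) runs from 90 bases before to 10 after the start, its match spanning the start site. That of Slc7a7 (chr14:54417935-54418094, minus strand) runs from 150 before to 10 after a RefSeq start at 54417944, upstream of the start of the deposited transcript at 54417702. That of Slc38a6 (chr12:73286638-73286747, plus strand) lies 210 to 101 bases before the start, with a further core match capitalised as well.
Slc7a11: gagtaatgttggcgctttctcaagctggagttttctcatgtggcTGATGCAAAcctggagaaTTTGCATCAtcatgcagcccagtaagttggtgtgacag
Slc1a4: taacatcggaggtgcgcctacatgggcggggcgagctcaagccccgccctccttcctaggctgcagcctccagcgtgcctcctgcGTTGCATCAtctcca
Slc7a7: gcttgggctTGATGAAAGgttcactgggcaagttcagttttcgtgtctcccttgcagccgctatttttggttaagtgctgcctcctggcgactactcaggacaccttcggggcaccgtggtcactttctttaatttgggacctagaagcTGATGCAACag
Slc38a6: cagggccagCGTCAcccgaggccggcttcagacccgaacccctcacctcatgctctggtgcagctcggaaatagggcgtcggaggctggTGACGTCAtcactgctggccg

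**Figure D2:**
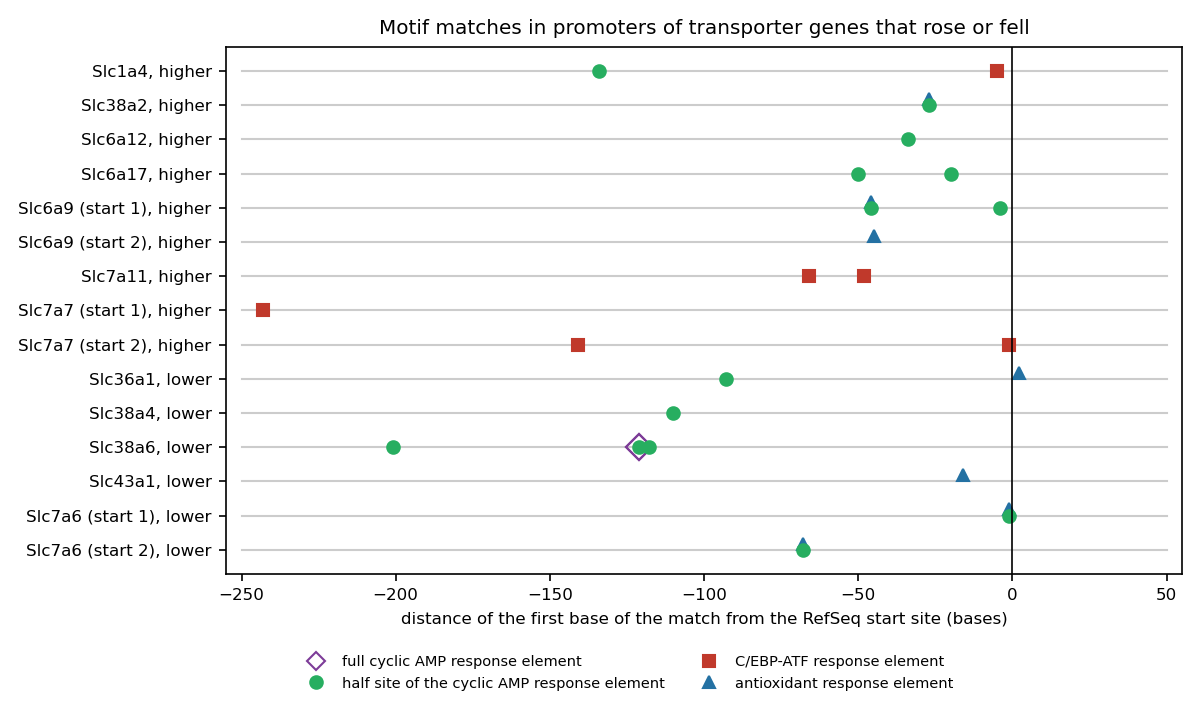
Position of each match (x axis, bases from the RefSeq start site, counted at the first base of the match) in the promoter windows of transporter genes that were higher or lower, 1 line per start site. C/EBP-ATF matches (red squares) appear on lines of higher genes, Slc1a4, Slc7a11 and Slc7a7, and the full cyclic AMP element (purple diamond) on that of Slc38a6.

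In the Slc1 family both exchangers of neutral amino acids rose, as did the glutamate carrier gene Slc1a7, and the glutamate carrier genes Slc1a6 and Slc1a2 fell. Slc1a4, for ASCT1, which exchanges alanine, serine, cysteine and threonine, was at 28, 27.6 and 28.8 CPM with vehicle (A, B and C) and 84.2, 75.1 and 69.4 CPM with forskolin. The groups were far apart, and the mean rose 2.71-fold (log2 fold change 1.44, SE 0.0732, adjusted p = 1.45e-11). Slc1a5, for the glutamine exchanger ASCT2, was at 27.5, 29.4 and 32.6 CPM with vehicle and 43.9, 44.2 and 44.7 CPM with forskolin and rose by 0.57 (SE 0.074, adjusted p = 4.14e-06). The glutamate carrier gene Slc1a6 (chromosome 10, 78780496 to 78814825), whose product EAAT4 is best known from cerebellar Purkinje cells, was at 31.1, 31.8 and 33.2 CPM with vehicle (A, B and C) and 3.28, 3.63 and 4.6 CPM with forskolin. No other tested member fell as far: the mean was 8.35-fold lower with forskolin (log2 fold change -3.05, SE 0.122, adjusted p = 5.23e-13). Slc1a7, for the retinal carrier EAAT5, moved the opposite way from a low level, 1.55, 1.00 and 0.945 CPM with vehicle (A, B and C) and 7.47, 6.5 and 6.41 CPM with forskolin. Its libraries held 21, 15 and 12 counts with vehicle and 82, 85.5 and 78.5 with forskolin, and the log2 fold change was 2.53 (SE 0.23, adjusted p = 4.47e-08). Slc1a2, for the main glial glutamate carrier, was at 3.84, 3.75 and 3.78 CPM with vehicle (A, B and C) and 1.64, 1.66 and 1.32 CPM with forskolin, with no overlap, and fell from a mean of 3.79 ± 0.0445 to 1.54 ± 0.194 CPM (log2 fold change -1.29, SE 0.234, adjusted p = 0.00016). Per kilobase, the summed level of the glutamate carrier genes (Slc1a1, Slc1a2, Slc1a3, Slc1a6 and Slc1a7) went from 16, 16.1 and 16.8 CPM with vehicle to 4.44, 4.24 and 4.8 CPM with forskolin. Slc1a6 made up 44.9 ± 0.479% of the family's summed level per kilobase with vehicle and 4.63 ± 0.991% with forskolin, and Slc1a4 20.9 ± 0.61% and 48.5 ± 2.81% (SD, n = 3 each).

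In the Slc6 family, the gene of the glycine carrier rose and that of the taurine carrier fell. Slc6a9, for GlyT1, which takes up glycine, was at 34.3, 34.2 and 35.7 CPM with vehicle (A, B and C) and 121, 120.1 and 108 CPM with forskolin. The mean rose 3.35-fold (log2 fold change 1.74, SE 0.0603, adjusted p = 8.5e-14). Of the exon bases of its GENCODE transcript 44.7% overlap B4galt2, Ccdc24 and Gm17114 on the other strand. Strand was not stated to be kept. Stretches of 50 bases that the transcript shares with other genes were found in Ccdc24 and Gm17114, and none in B4galt2. B4galt2 was at 46.6 and 56.7 CPM and Ccdc24 at 2.31 and 3.74 CPM, and both were higher with forskolin, by 0.28 and 0.70 on the log2 scale, less than Slc6a9 itself. Slc6a6, for TauT, which takes up taurine, had the highest CPM of all members with vehicle, 625, 617 and 629 CPM with vehicle (A, B and C) and 370.4, 376 and 359.7 CPM with forskolin. It fell by 0.76 on the log2 scale (SE 0.0395, adjusted p = 2.07e-11), and its groups were tight and apart. Within a library, Slc6a9 over Slc6a6 per kilobase was 0.104, 0.105 and 0.107 with vehicle and 0.617, 0.604 and 0.565 with forskolin. The creatine carrier gene Slc6a8 was at 243 ± 11 and 226 ± 5.83 CPM. Its forskolin libraries were all just below its vehicle libraries, but the difference did not pass (log2 fold change -0.10, adjusted p = 0.0559).

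The other Slc6 genes past the threshold had few counts in the group where they were low. Slc6a12, for BGT1, which carries betaine and GABA, had 4.5, 3 and 4 counts with vehicle and 43.5, 53.5 and 42 with forskolin. The ratio of pooled, library-scaled counts was 13.1 (95% counting interval 7.27 to 26, exact binomial, counting error only), and the log2 fold change of 3.80 was the highest among the tested members (SE 0.338, adjusted p = 3.21e-08). Slc6a17, for a carrier of neutral amino acids into synaptic vesicles, was at 1.03, 0.871 and 1.89 CPM with vehicle (A, B and C) and 7.47, 5.29 and 5.01 CPM with forskolin and rose by 2.23 (SE 0.274, adjusted p = 2.1e-06). Slc6a19, for the neutral amino acid carrier of kidney and intestine, was at 7.38, 8.71 and 7.95 CPM with vehicle (A, B and C) and 1.09, 1.06 and 1.81 CPM with forskolin and fell by 2.60 (SE 0.222, adjusted p = 1.85e-08). It lies 1.72 kb from Slc6a18 on chromosome 13, which had 9.5, 1.5 and 7 counts with vehicle and 3, 0 and 3 with forskolin and was not tested.

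**Figure D3:**
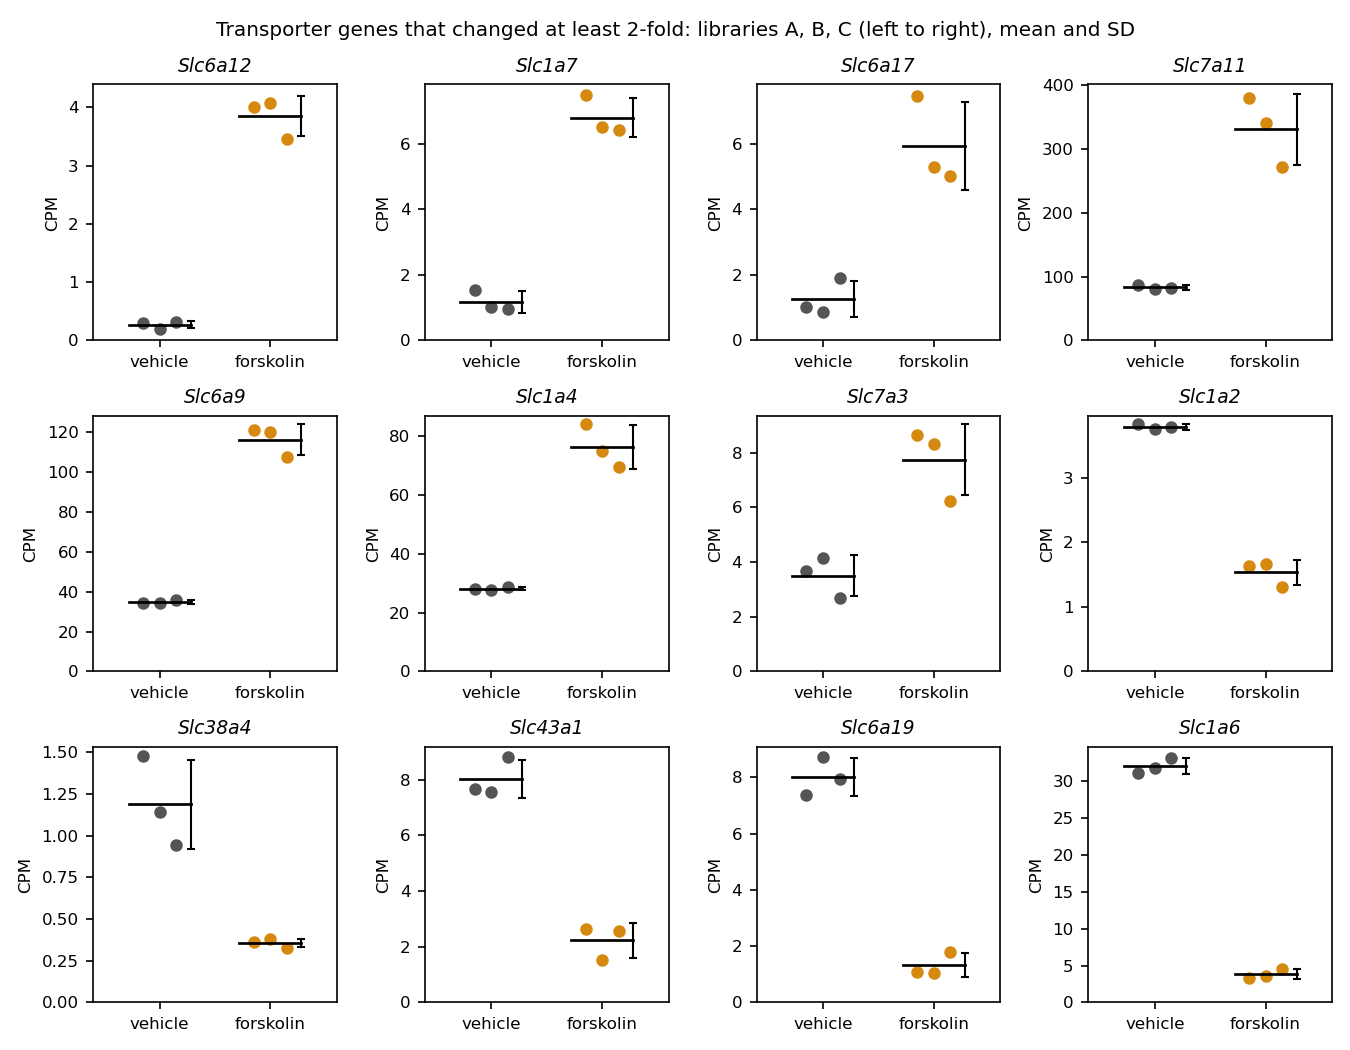
CPM (y axes, linear, each from 0) in the 3 vehicle and 3 forskolin libraries (points) with mean (line) and SD (bar) for the 12 transporter genes that changed at least 2-fold past the threshold. No forskolin library overlaps a vehicle library in any panel, and the abundant genes among them are Slc7a11, Slc6a9, Slc1a4 and Slc1a6.

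Carriers of cationic amino acids did not move together. Slc7a1, for CAT1, the common carrier of arginine and lysine, was among the most abundant members and differed little, at 482, 509 and 491 CPM with vehicle (A, B and C) and 521, 483 and 457 CPM with forskolin. Its groups overlapped, and the 95% interval of its log2 fold change was -0.12 to 0.08 (estimate -0.02, adjusted p = 0.736). Slc7a2, for a related arginine carrier that the liver also uses, fell from 10.9, 13.4 and 10.6 to 7.11, 4.31 and 6.9 CPM (log2 fold change -0.95, SE 0.172, adjusted p = 0.000171). Slc7a3, for the third carrier of this kind, rose from 3.69, 4.15 and 2.68 to 8.66, 8.31 and 6.25 CPM (log2 fold change 1.13, SE 0.194, adjusted p = 9.63e-05). Slc7a4, whose transport activity is unclear, was at 7.72 ± 2.23 and 5.97 ± 1.01 CPM and did not pass (adjusted p = 0.122). Per kilobase, Slc7a1 stood at 69 CPM per kilobase with vehicle, against 1.51 for Slc7a2 and 1.46 for Slc7a3.

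Of the 9 tested genes of the Slc36 and Slc38 families 2 were higher, 3 lower and 4 did not pass. This is near the 49.9% of all genes tested that passed in either direction. Slc36a1, for PAT1, which moves proline, glycine and alanine with protons at the lysosome and the cell surface, was at 126, 122 and 116 CPM with vehicle (A, B and C) and 71.4, 69.2 and 62.6 CPM with forskolin. The groups did not overlap, and it fell by 0.84 on the log2 scale (SE 0.0559, adjusted p = 5.79e-10). Its relative Slc36a4 was at 76.1 ± 2.39 and 70.6 ± 2.02 CPM, with every forskolin library below every vehicle library, and did not pass (log2 fold change -0.11, adjusted p = 0.0963). Of the system A carriers, which bring in alanine, glutamine and proline with sodium, Slc38a2, known as a target of ATF4 in starved cells, was the most abundant Slc38 gene. It was at 495, 469.8 and 492 CPM with vehicle (A, B and C) and 555, 533 and 492 CPM with forskolin, with forskolin C inside the vehicle range, and its small difference passed only just (log2 fold change 0.12, SE 0.0463, adjusted p = 0.0439). That call was lost under 6 alternatives, among them the removal of forskolin A or B or of any vehicle library, with a highest adjusted p of 0.165. Slc38a1, 45.4 kb away on chromosome 15, rose from 13, 13.9 and 13.5 to 20.2, 22.4 and 15.9 CPM (log2 fold change 0.53, SE 0.12, adjusted p = 0.0012). Slc38a4, the system A gene typical of hepatocytes, had 19.5, 17 and 12.5 counts with vehicle and 4, 5 and 4 with forskolin and fell by 1.71 (SE 0.421, adjusted p = 0.0025). Slc38a6 fell from 26.4 ± 0.842 to 21.2 ± 1.57 CPM (log2 fold change -0.31, SE 0.0866, adjusted p = 0.00571).

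The genes of lysosomal amino acid carriers in the Slc38 family, Slc38a9 and Slc38a7, did not pass, and Slc38a10 did not either. Slc38a9, which signals lysosomal arginine to the growth kinase complex mTORC1, was at 13.3 ± 1.24 and 14.9 ± 2.2 CPM (95% interval of the log2 fold change -0.09 to 0.43). Slc38a7, for a lysosomal exporter of glutamine and asparagine, was at 95.6 ± 4.3 and 93.7 ± 8.02 CPM (interval -0.16 to 0.10). Slc38a10, another abundant Slc38 gene, was at 316 ± 1.55 and 312 ± 8.79 CPM (interval -0.10 to 0.07). The intervals of Slc38a7 and Slc38a10 lie within a change of 0.2 on the log2 scale in either direction.

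The 3 Slc43 genes all passed, 1 higher and 2 lower, where 49.9% of all genes tested passed in either direction. Slc43a3 is a family member whose product was found to carry purine nucleobases and not amino acids. On the deposited exon lengths it had the highest level per kilobase of all members, 133 CPM with vehicle and 176 CPM with forskolin. It was at 343, 345 and 344 CPM with vehicle (A, B and C) and 466, 449 and 451 CPM with forskolin and rose by 0.40 on the log2 scale (SE 0.039, adjusted p = 9.47e-08). Slc43a1, for LAT3, which carries branched-chain amino acids and phenylalanine, was at 7.68, 7.57 and 8.82 CPM with vehicle (A, B and C) and 2.64, 1.51 and 2.55 CPM with forskolin and fell by 1.85 (SE 0.206, adjusted p = 5.73e-07). The related Slc43a2, for LAT4, fell from 13 ± 1.79 to 8.76 ± 0.49 CPM (log2 fold change -0.57, SE 0.132, adjusted p = 0.00148). Slc43a1 (chromosome 2, 84839408 to 84863586) and Slc43a3 (chromosome 2, 84936646 to 84958509) lie 73.1 kb apart in the same orientation with 1 gene of the table, Rtn4rl2, between them, and moved in opposite directions.

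Summed per kilobase, RNA of the 61 genes was 864, 854 and 856 CPM with vehicle and 1006, 976 and 932 CPM with forskolin, the groups not overlapping. Within these sums Slc43a3, for a nucleobase carrier, went from 133 to 176 on average. The heavy chain gene Slc3a2 went from 94.4 to 128 CPM per kilobase. The Slc1 family went from 33.2, 33.9 and 36.1 to 41.9, 39.5 and 38.8 CPM per kilobase. The Slc7 family went from 158, 165 and 157 to 227, 221 and 206, Slc3 from 98.8, 93 and 97.5 to 141, 129 and 123 and Slc43 from 137, 138 and 139 to 183, 175 and 177 CPM per kilobase. The Slc6 family went from 179, 175 and 175 to 159, 159 and 150.2 and Slc36 from 38.1, 36.8 and 35.4 to 26.6, 25.9 and 24.2. The Slc38 sums overlapped, at 219.8, 212 and 217 and 228, 226 and 213. These sums are led by few genes and were not tested. Within Slc7, Slc7a1 made up 43.1 ± 0.508% of the family's sum with vehicle and 31.2 ± 0.800% with forskolin, Slc7a5 23.6 ± 0.479% and 33.9 ± 1.22%, and Slc7a11 5.66 ± 0.368% and 16.4 ± 1.97%. Slc7a1 led the family per kilobase in every vehicle library and Slc7a5 in every forskolin library, in forskolin A by a narrow margin.

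**Figure D4:**
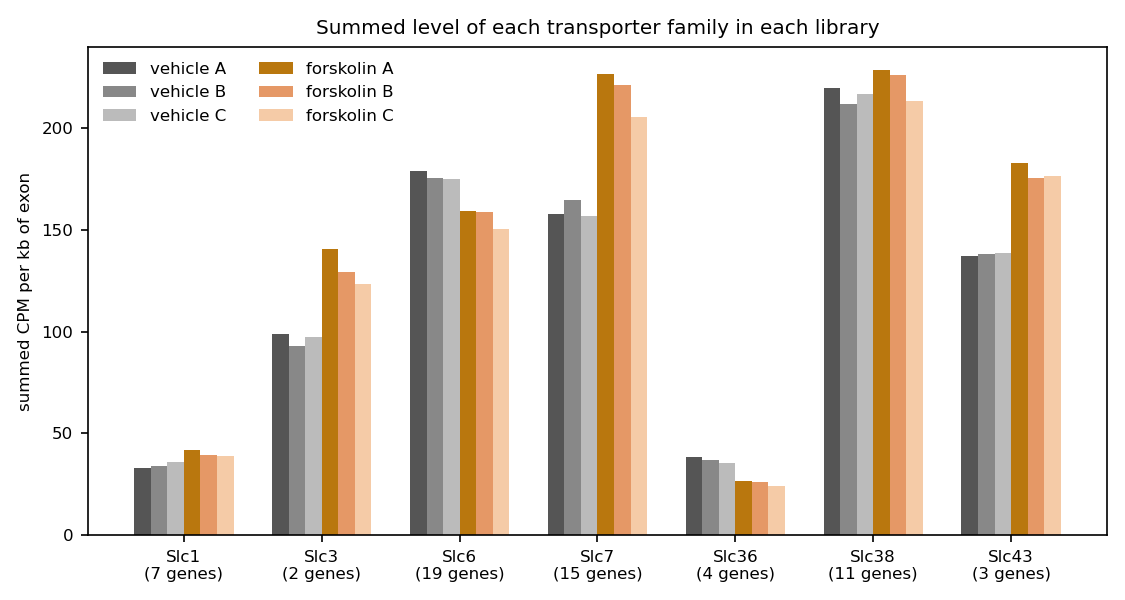
Summed CPM per kilobase of exon (y axis, from 0) of all genes of each family (x axis) in each of the 6 libraries (grey, vehicle; orange, forskolin). Bars of Slc1, Slc3, Slc7 and Slc43 are taller and those of Slc6 and Slc36 shorter in all forskolin libraries, and those of Slc38 overlap.

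The remaining 27 genes were not tested for lack of counts, 13 of them in the Slc6 family. No library held a count for Slc6a2, Slc6a11, Slc6a13, Slc7a12, Slc36a3 and Slc38a5, which allows a level of up to 0.199 to 0.275 CPM, 3 counts of each library's total. Slc6a11 encodes a GABA carrier of the brain and Slc6a2 the noradrenaline carrier. The dopamine carrier gene Slc6a3 had 4, 2 and 6 counts with vehicle and 1, 1.5 and 0 with forskolin, and the serotonin carrier gene Slc6a4 had at most 1 count in a library. Slc6a5, for GlyT2, the other glycine carrier, had 1, 0 and 0 counts with vehicle and 10, 2 and 10.5 with forskolin, so that forskolin B stood close to the vehicle libraries. Slc7a13, for a light chain of the kidney, had 4.5, 4 and 3 counts with vehicle and 0, 1 and 0 with forskolin. Slc1a1, for a widespread glutamate carrier, had 6, 4 and 3 and then 7, 8 and 11. Of the Slc1a1 exon bases 32% overlap 4430402I18Rik on the other strand, so its counts are uncertain. The leucine carrier gene Slc7a8 had 5.5, 7 and 10 counts with vehicle and 9, 4 and 3 with forskolin, and the glial glutamate carrier gene Slc1a3 0, 6.5 and 7 and then 2.5, 1 and 4.5, with overlapping groups for both. The other untested genes given no value here held at most 10 counts in any library.

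Genes around amino acid supply were followed in lists that share no gene with the 61. Of 26 genes of the amino acid deprivation response, all tested, 24 were higher and 2 lower, with a median log2 fold change of 0.99, where 49.9% of all genes tested passed. The pseudokinase gene Trib3 was at 21.4, 19.3 and 20.9 CPM with vehicle and 122, 111 and 101 CPM with forskolin (adjusted p = 1.77e-14). Pck2, for mitochondrial phosphoenolpyruvate carboxykinase, was at 45.5, 49.6 and 48.6 CPM with vehicle and 153, 151 and 149 CPM with forskolin (1.66 on the log2 scale), and the asparagine synthetase gene Asns at 118, 109 and 118 CPM with vehicle and 281, 257 and 255 CPM with forskolin (1.20). Atf4 itself went from 178 ± 3.2 to 279 ± 11.7 CPM (0.65, adjusted p = 5.73e-10). The 2 lower genes were the leucine sensor gene Sesn2 (-0.49) and Eif2ak4 (-0.40), for GCN2, the kinase that senses uncharged tRNA. Since Trib3 and Asns were known to be higher in these libraries when the list was drawn up, its count is not independent evidence of a direction.

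Of 19 genes of cystine use and glutathione synthesis 12 were higher and 1 lower, where 24.8% of all genes tested were higher and 25.1% lower (list median 0.36). The cystathionine lyase gene Cth rose from 5.94 ± 0.511 to 26.8 ± 2.4 CPM (2.17), Chac1, for an enzyme that degrades glutathione, from 13.5 ± 1.45 to 41.6 ± 2.36 CPM (1.62), and Gclc, for the catalytic subunit of the enzyme that starts glutathione synthesis, from 139 ± 3.05 to 263 ± 22.6 CPM (0.92). The lower gene was Cdo1, for an enzyme that oxidises cysteine, at 27.9, 26.1 and 23.2 CPM with vehicle and 13.5, 18.6 and 23.7 CPM with forskolin (-0.46), with forskolin C inside the vehicle range. Cth and Chac1 are also on the deprivation list. Of 27 tested enzymes of glutamine, glutamate, proline, arginine and branched-chain amino acids 9 were higher and 7 lower (median 0.08), 59.3% in either direction beside 49.9% of all genes tested. Bcat1, for the cytosolic branched-chain aminotransferase, rose by 1.72 from 21.6 ± 1.51 to 71.2 ± 3.15 CPM, and Aldh18a1, for the enzyme that starts proline synthesis, rose by 1.01. The glutamine synthetase gene Glul fell by 0.82 from 166 ± 2.07 to 93.9 ± 6.13 CPM.

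Carriers of amino acids and peptides outside the 7 families were mostly lower. Of 10 tested genes 9 were lower and 0 higher (median -0.56), where 25.1% of all genes tested and 77 of the 190 tested genes of other Slc families were lower. Slc17a8, for a vesicular glutamate carrier, fell by 1.62 from 6.69 ± 1.58 to 2.18 ± 0.419 CPM. Mfsd12, needed for cysteine import into lysosomes, fell by 0.48, and Slc15a4, for a lysosomal carrier of histidine and peptides, by 0.38. The lysosomal cystine exporter gene Ctns, at 20.8 ± 1.75 and 24.1 ± 2.55 CPM, did not pass (adjusted p = 0.0814). Of 36 tested genes through which mTORC1 senses amino acids 11 were higher and 8 lower, none by 2-fold (median 0.05). These are 52.8% of the list, close to the 49.9% of all genes tested. Past Sesn2, the smallest adjusted p-values were those of Wdr24, of the GATOR2 complex (0.58), and of the GTPase gene Rragd (-0.37).

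**Figure D5:**
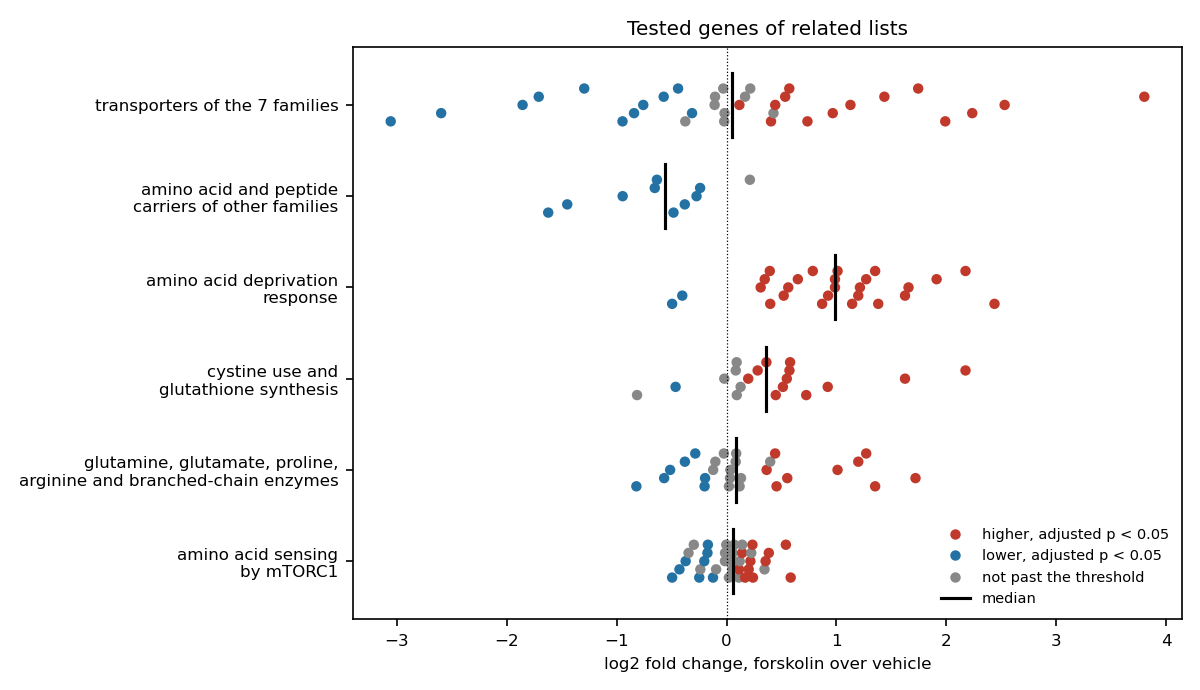
Log2 fold change of forskolin over vehicle (x axis) for the tested genes (points) of the 7 transporter families and of 5 related lists (y axis), with the median as a black bar. The deprivation list lies mostly right of 0 (24 of 26 higher), carriers of other families mostly left of it (9 of 10 lower), and the transporter genes spread widely to both sides.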

How the data were processed

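The members were chosen by symbol, and they and the gene lists were chosen with earlier results of these data known. Per the file headers, the deposited values are estimated counts per gene (expected counts), not normalized, with 1 RefSeq transcript per gene and its exon length. STAR and HOMER were used with mm10, per the submitters' processing notes. The sources used here do not give their versions, settings or use of strand. The deposited values are multiples of 0.5, and 31.8% are not whole, so they were rounded to whole numbers. A filter (filterByExpr in edgeR 4.0.16 under R 4.3.3, with a count of at least 10 and a total of at least 15) retained 13357 of 24940 genes, libraries were scaled by TMM, and the groups were compared by the quasi-likelihood test (glmQLFit, glmQLFTest) without further terms. P-values are two-sided and adjusted by Benjamini-Hochberg over all genes tested, with a threshold of 0.05. CPM were computed on TMM-scaled library sizes. Each log2 fold change is of forskolin relative to vehicle, with its SE from the F statistic and a 95% interval. The fit was tested on simulated counts. Exon overlap with other genes was taken from GENCODE M21 (GRCm38), and counts of overlapping genes cannot be separated without strand. Members were named by a rule, and results for 1 member and 1 marker are not reported here. Those past the threshold at 2-fold or more, and the most abundant of each family, are given library by library, as CPM or, for Slc6a12 and Slc38a4, as counts. Of other lists, up to 3 genes with the smallest adjusted p are named. Eif2ak4, Atf4, Glul, Ctns, Cdo1 and the cell type markers given were named after their values were seen. Protein sequences are not used here. Alternatives tried were DESeq2 1.42.0, RLE or no scaling factors, other filters, unrounded values, thinned counts, a replicate block and leaving out each library.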

Additional observations from a re-analysis of the deposited data

How the results depend on the processing

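Under 14 alternatives the number of members higher with forskolin ranged from 13 to 16 and lower from 10 to 13, beside 14 and 11. Leaving out each library gave 13 to 15 and 11 to 13. Of the 25 members called, Slc38a2 and Slc38a4 were the only ones not called under some alternative run. Slc38a4 was not tested with a filter of at least 1 CPM in 3 samples. Slc38a2 lost its call with RLE factors and without forskolin A, forskolin B, vehicle A, vehicle B or vehicle C. Calls were gained for Slc6a8 under 5 alternatives, Slc3a1 under 3, Slc6a5 under 6 and Slc7a4 without vehicle C. Those of Slc6a5 came with DESeq2, with no filter, and without forskolin B, vehicle A, vehicle B or vehicle C. It held 1, 0 and 0 counts with vehicle and 10, 2 and 10.5 with forskolin. It could thus pass a filter only through the group in which it was high, and its calls show no robustness. Counts of Slc3a1 are uncertain through its overlap with Prepl. With the replicate letter as a block (replicate block), 14 members were higher and 12 lower, Slc6a8 being added. The deviations of libraries with the same letter correlated at 0.0379, 0.073 and 0.00343 for A, B and C across 10311 genes. Those of unlike letters correlated at -0.0847 to 0.047, a range that holds the values of A and C but not that of B. The labels state no pairing, and the letters were not taken to pair the libraries. The abundant members Slc7a1, Slc38a7 and Slc38a10 turned in sign and passed under no setting. With library size alone, the log2 fold change was 0.0216 for Slc7a1, 0.0131 for Slc38a7 and 0.025 for Slc38a10. Leaving out each library gave -0.0681 to 0.0233, above 0 without forskolin C (0.0233) and vehicle B (0.0011), for Slc7a1. It gave -0.0665 to 0.0401, above 0 without forskolin C (0.0401) and vehicle A (0.00875), for Slc38a7. It gave -0.0374 to 0.00507, above 0 without forskolin A (0.00507), for Slc38a10. With library size alone 58.1% of all calls were higher, beside 49.8%, and the split of the members was 15 higher and 11 lower. Depth limits the 27 members not tested, which held at most 11 counts in a library.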

Other observations

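With no filter on low counts, 52 of the 61 members entered the edgeR fit, and Slc6a5, the gene of the second glycine carrier, passed with a log2 fold change of 4.19 (SE 1.09, adjusted p = 0.000546). Its libraries held 1, 0 and 0 counts with vehicle and 10, 2 and 10.5 with forskolin, which gives a ratio of pooled counts of 24.9 with a 95% counting interval of 4.03 to 1028. It was also called by DESeq2. Slc6a5 was not tested in the main fit, and nearly all its counts lie in the group in which it was high. P-values of the fits are not comparable: the adjusted p of Slc1a4 was 1.45e-11 in the main fit and 1.77e-86 in the unfiltered fit. Of the other low members in that fit, Slc7a13, with 4.5, 4 and 3 counts with vehicle and 0, 1 and 0 with forskolin, was at -2.90 (adjusted p = 0.0819), and Slc1a1 at 1.15 (adjusted p = 0.149). Neither passed.

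By level, 15 tested members had a mean of at least 50 CPM, of which 7 were higher and 3 lower, and 12 had 5 to 50 CPM, of which 4 were higher and 5 lower. Of all tested genes in these ranges 58.3% and 49.6% passed in either direction. The median absolute log2 fold change was 0.44 over the members of at least 50 CPM and 0.16 over all genes in that range, and 0.57 and 0.25 in the lower one. Under 5 CPM, 7 of 34 members were tested, of which 3 were higher and 3 lower, all 6 by at least 2-fold, and 30.7% of all genes tested in that range passed. The median absolute log2 fold change there was 2.23 over these 7 and 0.43 over all genes. The 7 include Slc6a12 and Slc38a4, which passed the filter only through the group in which they were high.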
